A study of Homo sapiens with 12 samples.

Results

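7SK is an abundant nuclear RNA, and with its protein partners it makes up the 7SK ribonucleoprotein. The genes described here were chosen by name as known parts of that particle: 7SK itself and the 7 genes LARP7, MEPCE, HEXIM1, HEXIM2, CDK9, CCNT1 and CCNT2. These are 8 of the 60483 genes in the total RNA count table, and all 8 passed the filter on low counts. Copies of 7SK annotated as pseudogenes were left out.

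The study used HEK293 cells, an established human embryonic kidney line, carrying a doxycycline-inducible cassette placed by the Flp-In T-REx system. The cassette produced a recoded DIS3L2 with a FLAG tag at its C-terminus, and it co-expressed sh-miRNAs directed against the cell's own DIS3L2 mRNA. DIS3L2 is a cytoplasmic exonuclease that degrades RNA from the 3′ end. In the WT group the cassette DIS3L2 was wild type and in the mut group it was a catalytic mutant, so both groups carried the tag, the sh-miRNAs and the same 3 days of doxycycline at 100 ng/ml. There were 3 mut and 3 WT libraries of rRNA-depleted total RNA, and 3 mut and 3 WT libraries of RNA selected on a gel at 20 to 200 nt. The labels do not say whether a line was 1 clone, or whether replicates were separate cultures. The p-values are thus set by how far these libraries differ from one another, and that spread can be technical.

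7SK is made by RNA polymerase III. MEPCE caps its 5′ end and stays bound, LARP7 holds the U-rich 3′ end, and together they protect the RNA. Through HEXIM1 or HEXIM2, 7SK holds P-TEFb, the kinase CDK9 with cyclin T1 or T2, in an inactive form; released P-TEFb phosphorylates RNA polymerase II and its pausing factors so that elongation can proceed.

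The total RNA libraries held 8315986 to 12675042 gene counts each. A further 57.8% to 63.2% of the deposited reads were in rows that name no gene, and reads aligned to several places were 39.9% ± 2.37 (SD, n = 3) of mut and 34.5% ± 4.56 of WT reads. DIS3L2 was read at 1144, 1040 and 1091 CPM (counts-per-million of the gene counts, scaled between libraries) in the mut libraries and at 763, 813 and 777 CPM in the WT libraries. The mut libraries were all higher, with a log2 difference of 0.48 (SE 0.05) and an adjusted p of 1.9e-07 in edgeR's quasi-likelihood test. Counts per gene do not separate cassette from endogenous DIS3L2 and do not show which variant was made. Of the 8 markers listed for the HEK293 lineage, 6 passed the filter, and PAX2 and NEFM did not. The 8 together summed to 1931 to 2044 CPM in mut, against 1642 to 1772 CPM in WT libraries. Of the 6 tested, 5 were called higher and LIN28B was called lower in mut at an adjusted p below 0.05 by edgeR. Over all genes tested, 13.0% were called higher and 14.2% lower. The 6 fibroblast markers summed to 4.48 to 6.92 CPM in mut, against 2.69 to 3.60 CPM in WT, with COL1A2 and DCN at 0 throughout, and the 4 blood and 3 endothelial markers summed to at most 0.47 and 1.17 CPM. Of the 3 fibroblast markers tested, COL1A1 (log2 difference 0.83, adjusted p = 0.033 by edgeR) and COL3A1 (2.03, adjusted p = 0.0011) were called higher. PDGFRA was not called. No fibroblast marker exceeded 3.57 CPM in a library. The part of these differences in the results below was not tested.

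Across all genes 14409 were tested and 27.2% were called at an adjusted p below 0.05 (13.0% higher and 14.2% lower in mut), with a median log2 difference of -0.01. Of the 8 members, 3 were called higher (7SK, MEPCE and CDK9), 1 was called lower (CCNT2) and 4 were not called (LARP7, HEXIM1, HEXIM2 and CCNT1). Among the 7 partner genes alone, 2 were higher and 1 was lower, and their median log2 difference was -0.02. The mut and WT libraries did not overlap for 5 of the 8 members. Over all tested genes 40.5% did not overlap, 19.4% with mut above and 21.2% with mut below.

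**Figure D1:**
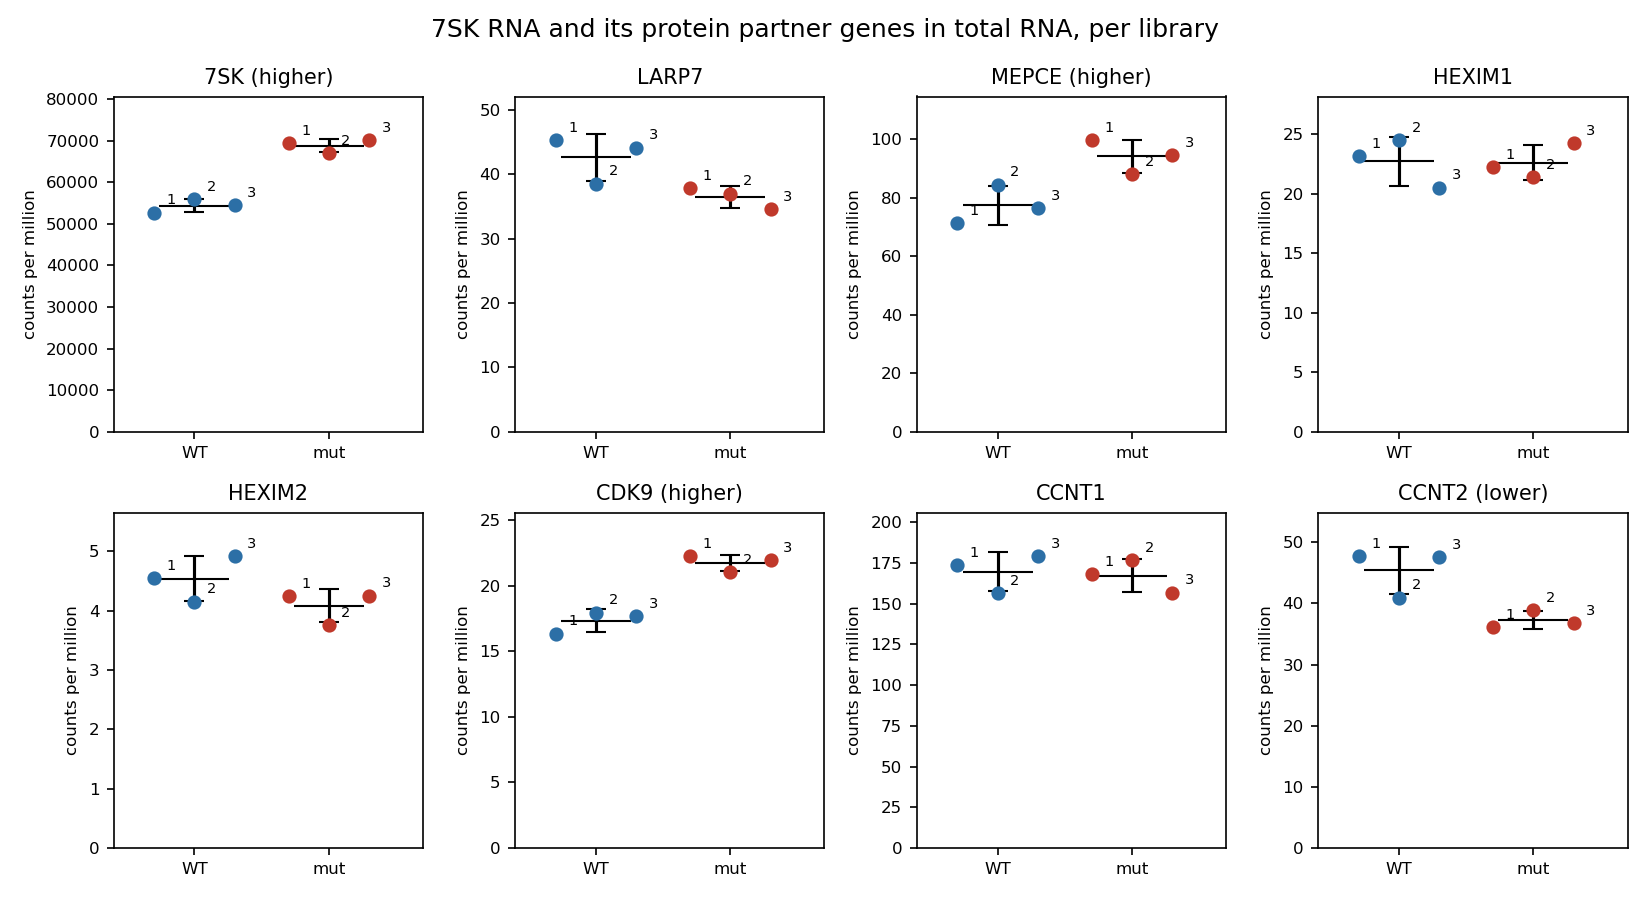
Level of each member in every total RNA library, in CPM after scaling by the trimmed mean of M-values, on linear axes that start at 0. Points are libraries with their replicate numbers, horizontal lines are group means and bars are SDs (n = 3). The mut points lie above all WT points for 7SK, MEPCE and CDK9 and below them for LARP7 and CCNT2, while HEXIM1, HEXIM2 and CCNT1 overlap.

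7SK RNA was higher in cells with mut DIS3L2. The gene (RN7SK, ENSG00000202198.1) is 332 bp long at chr6:52995620-52995951 (GRCh38.p14), has no overlapping gene in RefSeq, and lies within 1 kb of GSTA4. It had 620986, 570923 and 610090 counts in mut libraries 1 to 3, and 509191, 713947 and 443686 counts in WT libraries 1 to 3. Scaled, these were 69338, 67051 and 70106 CPM in mut, against 52655, 55906 and 54516 CPM in WT. The lowest mut library was above the highest WT library, and the gap between the groups was wider than the spread within either. The means were 68832 ± 1589 CPM (SD, n = 3) in mut and 54359 ± 1631 CPM in WT, a 1.27-fold difference. The log2 difference was 0.34 (SE 0.04, 95% interval 0.27 to 0.42), with an adjusted p of 1.6e-07 in edgeR's quasi-likelihood test. In bulk RNA of this kind, fewer cells with a given level and less RNA per cell cannot be told apart.

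7SK took a large share of each library, so its level was also read without scaling between libraries. It was the second gene by count in all 6 libraries. Of all gene counts it made up 6.89%, 6.74% and 6.93% in mut and 5.30%, 5.63% and 5.34% in WT, and the groups did not overlap (two-sided exact permutation p = 0.1, the smallest that 3 against 3 allows). Of all deposited reads, including those assigned to no gene, it made up 2.75%, 2.48% and 2.57% in mut and 1.96%, 2.29% and 2.25% in WT, again without overlap (exact p = 0.1). Per kb of gene, 7SK was at 207324 ± 4788 CPM per kb in mut and 163732 ± 4914 in WT (n = 3). HEXIM1, the one partner whose gene is a single exon, was at 6.24 ± 0.41 and 6.27 ± 0.56 CPM per kb, so 7SK was 33235 and 26111 times higher per kb than this inhibitor's mRNA. The submitters describe this library protocol as favouring longer RNA, and no comparison per length was made for genes with introns.

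The size of the 7SK difference depended on 2 choices. Short and long genes differed in level: the 62 protein-coding genes spanning up to 1 kb had a median log2 difference of 0.23, and the 2485 spanning over 100 kb had -0.10. With the trend on gene span removed from each library, the 7SK difference was 0.21 (adjusted p = 0.00014 by edgeR) with a fit on protein-coding genes. With a fit on all genes it was 0.12 (adjusted p = 0.011 by edgeR). The all-gene fit takes in 7SK and other short RNAs, so it can remove part of a difference that they share. With libraries scaled to all deposited reads, a choice made after the data were seen, it was 0.26 and was not called (adjusted p = 0.076). That scaling moved the median of all genes to -0.08 and left 939 genes higher and 2583 lower, or 26.7% of calls higher against 47.7% under the main scaling. Beside this, reads that fell in no annotated feature were 12.9% ± 0.70 of mut and 17.9% ± 1.42 of WT reads (n = 3, exact permutation p = 0.1). Reads of ambiguous assignment went the other way, at 9.24% ± 0.63 of mut and 7.68% ± 0.71 of WT reads (n = 3, exact permutation p = 0.1). All rows that name no gene together were 62.0% ± 1.71 of mut and 60.0% ± 2.65 of WT reads (n = 3, exact permutation p = 0.3). The part of each row in the scaled 7SK value was not tested.

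The 299 annotated 7SK pseudogenes can share reads with 7SK. Their summed counts were 464 to 710 per library, which is 0.088% to 0.107% of the 7SK count. Of the 5 that passed the filter, 2 were called higher and 0 lower in mut, beside 13.0% higher and 14.2% lower of all genes tested. Reads aligned to several places were counted apart from genes, so 7SK reads that match a copy equally well are in none of the gene counts above. They are among all deposited reads, and how many of those came from 7SK is not known.

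Of the genes for the proteins that protect 7SK, 1 was called higher and 1 was not called. The mRNA of MEPCE, the methylphosphate capping enzyme, was higher in mut, whereas that of LARP7, the La-related protein on the 3′ end, lay lower in mut without passing the test. MEPCE (ENSG00000146834.12, chr7:100428790-100434118) was at 99.6, 88.1 and 94.5 CPM in mut, against 71.1, 84.4 and 76.4 CPM in WT. All mut libraries were above all WT libraries, with mut 2 and WT 2 only a few CPM apart. The means were 94.0 ± 5.77 and 77.3 ± 6.68 CPM (SD, n = 3), the log2 difference was 0.28 (SE 0.07) and the adjusted p was 0.0052 by edgeR. It was 0.22 and not called without WT 1 (adjusted p = 0.060), and 0.20 and not called with scaling to all deposited reads (adjusted p = 0.097).

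LARP7 (ENSG00000174720.14, chr4:112637143-112657586) was at 37.9, 37.0 and 34.6 CPM in mut, against 45.3, 38.5 and 44.1 CPM in WT. All mut libraries were below all WT libraries, and WT 2 was the nearest to them. The log2 difference was -0.22 (SE 0.08, 95% interval -0.39 to -0.05) and the adjusted p of 0.052 by edgeR was just above the threshold. It was called lower without WT 2 (-0.30, adjusted p = 0.012), with the span trend removed (-0.24 and -0.23, adjusted p = 0.029 in both), and when scaled to all deposited reads (-0.29, adjusted p = 0.024) or to all gene counts (-0.22, adjusted p = 0.048). LARP7 overlaps MIR302CHG, the host of the miR-302 and miR-367 hairpins. None of those in the count table had more than 3 counts in a library.

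The inhibitors HEXIM1 and HEXIM2 were not called. HEXIM1 (ENSG00000186834.3, chr17:45148475-45152099) was at 22.2, 21.4 and 24.2 CPM in mut, against 23.2, 24.5 and 20.5 CPM in WT. The libraries of the 2 groups interleaved. Its log2 difference was -0.02 (SE 0.10, 95% interval -0.22 to 0.18, adjusted p = 0.91 by edgeR). HEXIM2 (ENSG00000168517.9, chr17:45160174-45170040) was at 4.24, 3.76 and 4.25 CPM in mut, against 4.55, 4.15 and 4.91 CPM in WT, which overlapped. It rested on 32 to 53 counts per library, and its log2 difference of -0.14 had a 95% interval of -0.52 to 0.25 (adjusted p = 0.63 by edgeR). A difference as large as that of 7SK lies outside the interval of HEXIM1 and, upward, outside that of HEXIM2. HEXIM2-AS1 overlaps both genes and was at 1.91 ± 0.04 CPM in mut, against 1.78 ± 0.12 CPM in WT (n = 3); the strand setting of the counting is not given in the sources used here, so reads from the overlap cannot be told apart.

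Of the mRNAs of the P-TEFb subunits, that of the kinase was called higher, that of cyclin T2 was called lower and that of cyclin T1 was not called. CDK9 (ENSG00000136807.10, chr9:127786034-127790792), the kinase, was at 22.2, 21.0 and 21.9 CPM in mut, against 16.3, 17.9 and 17.7 CPM in WT. The mut libraries were all above the WT libraries. The means were 21.7 ± 0.63 and 17.3 ± 0.86 CPM (SD, n = 3), a 1.25-fold difference, with a log2 difference of 0.33 (SE 0.10) and an adjusted p of 0.014 by edgeR. It rested on 144 to 229 counts per library. CDK9 kept its direction but was not called by DESeq2 (0.33, adjusted p = 0.064), without WT 1 (0.28, adjusted p = 0.073) or with scaling to all deposited reads (0.25, adjusted p = 0.12).

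CCNT1 (ENSG00000129315.8, chr12:48688458-48716707), cyclin T1, was at 168, 177 and 157 CPM in mut, against 174, 156 and 179 CPM in WT. The groups overlapped fully, and the log2 difference was -0.02 (SE 0.06, 95% interval -0.15 to 0.11, adjusted p = 0.86 by edgeR). CCNT2 (ENSG00000082258.11, chr2:134918822-134959342), cyclin T2, was at 36.1, 38.9 and 36.8 CPM in mut, against 47.7, 41.0 and 47.6 CPM in WT. The mut libraries were all below the WT libraries, with WT 2 nearest to them. The means were 37.2 ± 1.46 and 45.4 ± 3.84 CPM (SD, n = 3), 1.21-fold higher in WT, with a log2 difference of -0.28 (SE 0.08) and an adjusted p of 0.012 by edgeR. It was not called without mut 3 (-0.25, adjusted p = 0.058), without WT 1 (-0.24, adjusted p = 0.075) or without WT 3 (-0.23, adjusted p = 0.085). Leaving out WT 1 thus ended all 3 calls among the partner genes, while 7SK was called without each library in turn (0.32 to 0.36). WT 1 was the WT library farthest from mut for MEPCE, CDK9 and CCNT2, so leaving it out narrows their differences by construction. Over all genes, 2780 of 14700 tested were called without WT 1, against 3916 of 14409 with it.

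**Figure D2:**
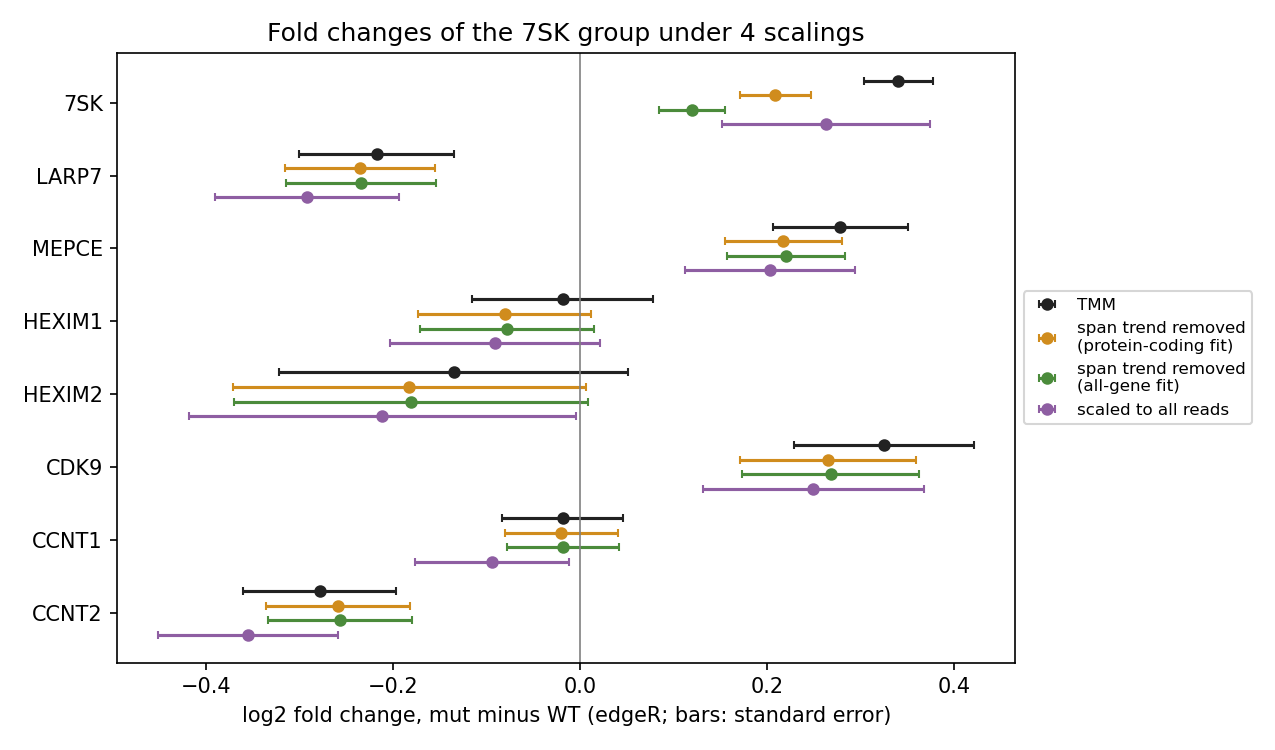
Log2 difference (mut minus WT) of 7SK and its 7 partner genes in total RNA under 4 scalings, each a colour, with bars for the standard error of edgeR's fit; the vertical line marks no difference. 7SK, MEPCE and CDK9 lie above 0 and LARP7 and CCNT2 below it under all 4, and the 7SK value runs from 0.34 down to 0.12.

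The 80 bases before the annotated starts of the 3 partner genes that were called are shown to let their proximal promoters be compared, since 2 of these genes were higher and 1 was lower. They are from RefSeq (GRCh38.p14), all on the plus strand, 5′ to 3′, at chr7:100428710-100428789 for MEPCE, chr9:127785954-127786033 for CDK9 and chr2:134918742-134918821 for CCNT2. Capitals mark matches, on either strand, to GGGCGG (GC box), TATAA or CCGGAAG (the core bound by ETS factors). The motifs were chosen after the sequences had been seen.
MEPCE: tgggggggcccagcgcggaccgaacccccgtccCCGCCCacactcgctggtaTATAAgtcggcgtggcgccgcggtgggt
CDK9: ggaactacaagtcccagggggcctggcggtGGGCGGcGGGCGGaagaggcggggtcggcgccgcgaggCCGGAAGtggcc
CCNT2: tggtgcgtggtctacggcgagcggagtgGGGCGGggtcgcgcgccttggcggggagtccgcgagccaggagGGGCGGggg

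Each of the 3 windows held GGGCGG, once in MEPCE and 2 times in both CDK9 and CCNT2, and 27.8% of the 35116 windows of the same length in the table hold it. TATAA was found 28 bases before the start of MEPCE and not in the other 2, and 7.78% of all windows hold it. MEPCE has 3 listed starts and only the window at its annotated gene start is described, while CDK9 and CCNT2 have 1 each. CCGGAAG was found 12 bases before the start of CDK9 alone, and 4.97% of all windows hold it. Searches for CCAAT (in 14.7% of all windows), CACGTG (2.86%) and the NRF1 motif (0.621%) found no match in these 3 windows. These matches are descriptions of the letters, and any part of them in the differences between mut and WT was not tested.

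Ratios within a library compare the members without any scaling between libraries, though they still carry the difference between short and long genes given above. 7SK over the summed counts of its 7 partner genes was 7.47, 7.44 and 7.55 on the log2 scale in mut and 7.11, 7.25 and 7.13 in WT. The ratio was higher in every mut library, by 0.33, with means of 7.49 ± 0.06 and 7.16 ± 0.08 (SD, n = 3, two-sided exact permutation p = 0.1, the smallest possible). In all 15 ratios were computed, and the Benjamini-Hochberg value of each exact permutation p of 0.1 was 0.14. Against single partners, 7SK was higher in every mut library relative to CCNT2 (0.62), LARP7 (0.56), HEXIM2 (0.49), CCNT1 (0.36) and HEXIM1 (0.35). Against CDK9 and MEPCE it was not: the log2 differences of these ratios were 0.01 (exact p = 0.6) and 0.06 (exact p = 0.4), and the groups overlapped. With the span trend removed, a choice made after the data were seen, 7SK over its summed partners differed by 0.22 when the trend was fitted on protein-coding genes and by 0.13 when fitted on all genes, and the groups did not overlap (exact permutation p = 0.1 in both). The ratios to CDK9 and MEPCE then turned negative, at -0.06 and -0.01 with the first fit and -0.15 and -0.10 with the second. For CDK9 the second fit put every mut library below every WT library (exact permutation p = 0.1). The ratio to MEPCE still overlapped between the groups (exact permutation p = 0.2 with the second fit). With the second fit the ratios to HEXIM1 (0.19) and CCNT1 (0.14) overlapped between the groups (exact permutation p = 0.2), while those to CCNT2 (0.38), LARP7 (0.36) and HEXIM2 (0.32) did not overlap.

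**Figure D3:**
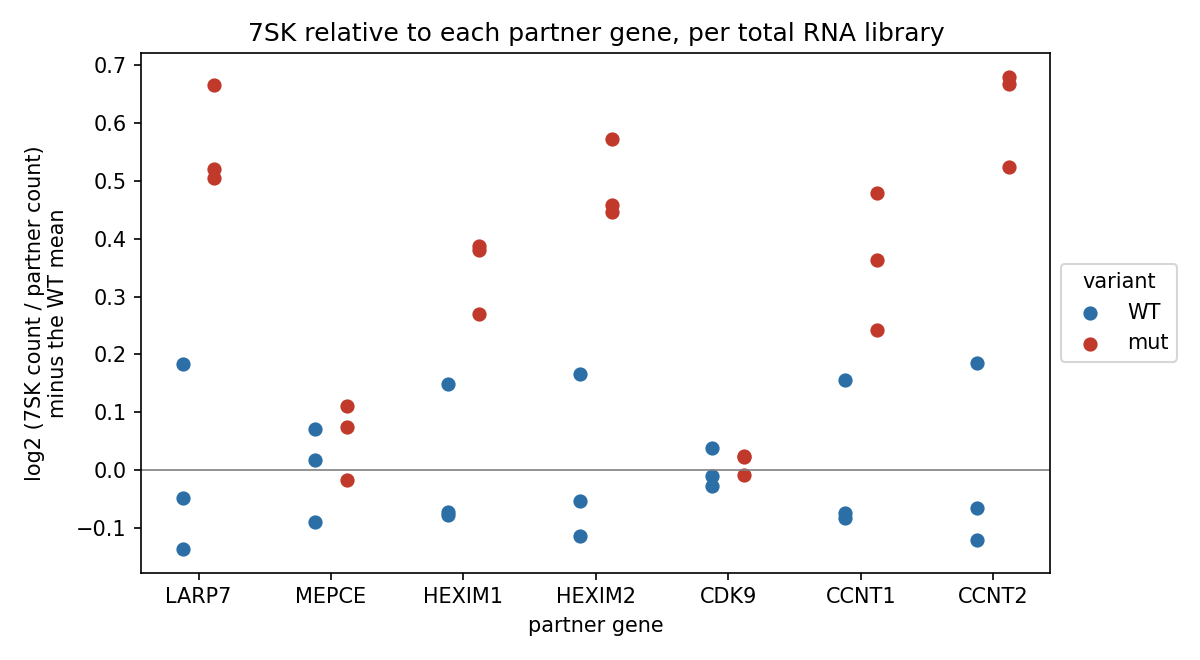
Log2 of the 7SK count over the count of each partner gene in each total RNA library, with the mean of the 3 WT libraries set to 0 for each gene. Each point is 1 library. Without removal of the span trend, the mut libraries lie above all WT libraries for 5 partners and among them for MEPCE and CDK9.

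The same ratios of gene counts were taken among the genes of the P-TEFb subunits. These are ratios of mRNA, and levels of protein or of the complex are not among these data. CDK9 over CCNT2 was higher in every mut library, with a log2 difference of 0.61. CDK9 over CCNT1 was also higher in every mut library (0.35), as was CCNT1 over CCNT2 (0.26, with 2.17 ± 0.07 in mut and 1.90 ± 0.03 in WT, n = 3). Against both cyclins summed, CDK9 was at -3.23 ± 0.11 on the log2 scale in mut and -3.63 ± 0.16 in WT (n = 3), a difference of 0.40. All 4 of these had an exact permutation p of 0.1. MEPCE over LARP7 was higher in every mut library by 0.51 (exact p = 0.1). HEXIM1 over HEXIM2 overlapped, with a difference of 0.15 (exact p = 0.6).

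The second assay read fragments of 7SK. The small RNA libraries were made after treatment with tobacco acid pyrophosphatase and selected at 20 to 200 nt, so the full 332 nt of 7SK lie outside the window. No feature in these files is annotated as 7SK, and 3 of the 4794 loci reconstructed by the authors overlap it. The whole locus, on the plus strand at chr6:52995616-52996003, runs from 4 nt before the 5′ end of 7SK to 52 nt past its RefSeq 3′ end. It was at 1670, 1885 and 2138 FPM (fragments-per-million, as deposited) in mut and 1989, 1867 and 1946 FPM in WT. The mut libraries spread on both sides of the WT libraries. The means were 1898 ± 234 and 1934 ± 61.8 FPM (SD, n = 3). FPM is scaled to the library total, and by it the log2 difference was -0.03. In the edgeR fit, which scales over the loci, the sign was the opposite and the log2 difference was 0.05 (SE 0.14, 95% interval -0.27 to 0.37) with an adjusted p of 0.93 in edgeR's quasi-likelihood test. Of the 589 loci tested in the same fit 1 was called, or 0.170%, with 46 at an unadjusted p under 0.05. The mut and WT libraries did not overlap for 15.3% of these loci, and they overlapped for all 3 loci over 7SK.

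An inner locus on the same strand, with 209 nt placed between positions 92 and 330 of 7SK, was at 1265, 1460 and 1717 FPM in mut and 1613, 1405 and 1543 FPM in WT. It held 75.2% to 81.1% as many fragments as the whole locus, and a fragment can count in both. This share was 77.8% ± 2.30 in mut and 78.5% ± 3.00 in WT (n = 3, exact permutation p = 0.8). A locus on the opposite strand, at chr6:52995629-52995957, was at 236, 57.4 and 181 FPM in mut and 461, 158 and 213 FPM in WT. These levels overlapped and varied widely within each group, from 3.04% to 23.2% of the whole locus, and the log2 difference of -0.76 had a 95% interval of -1.91 to 0.40 (adjusted p = 0.67 by edgeR).

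The 2 assays were then compared directly. The log2 difference in level was 0.34 in total RNA and 0.05 in small RNA scaled over the loci, and 0.29 lay between them (two-sided exact permutation p = 0.085 over 400 assignments of variants within each assay). With small RNA in FPM, a choice made after the data were seen, the small RNA difference was -0.03. The gap between the assays was then 0.37 (exact permutation p = 0.04). The null of both permutation tests is no difference between the variants in either assay. A difference in total RNA alone can lower these p-values, so they do not show whether the 2 assays differ. The interval of the fitted small RNA difference includes the 0.34 seen in total RNA. The small RNA libraries held 493314 to 1219718 fragments, 921 to 2299 of them on the whole locus.

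**Figure D4:**
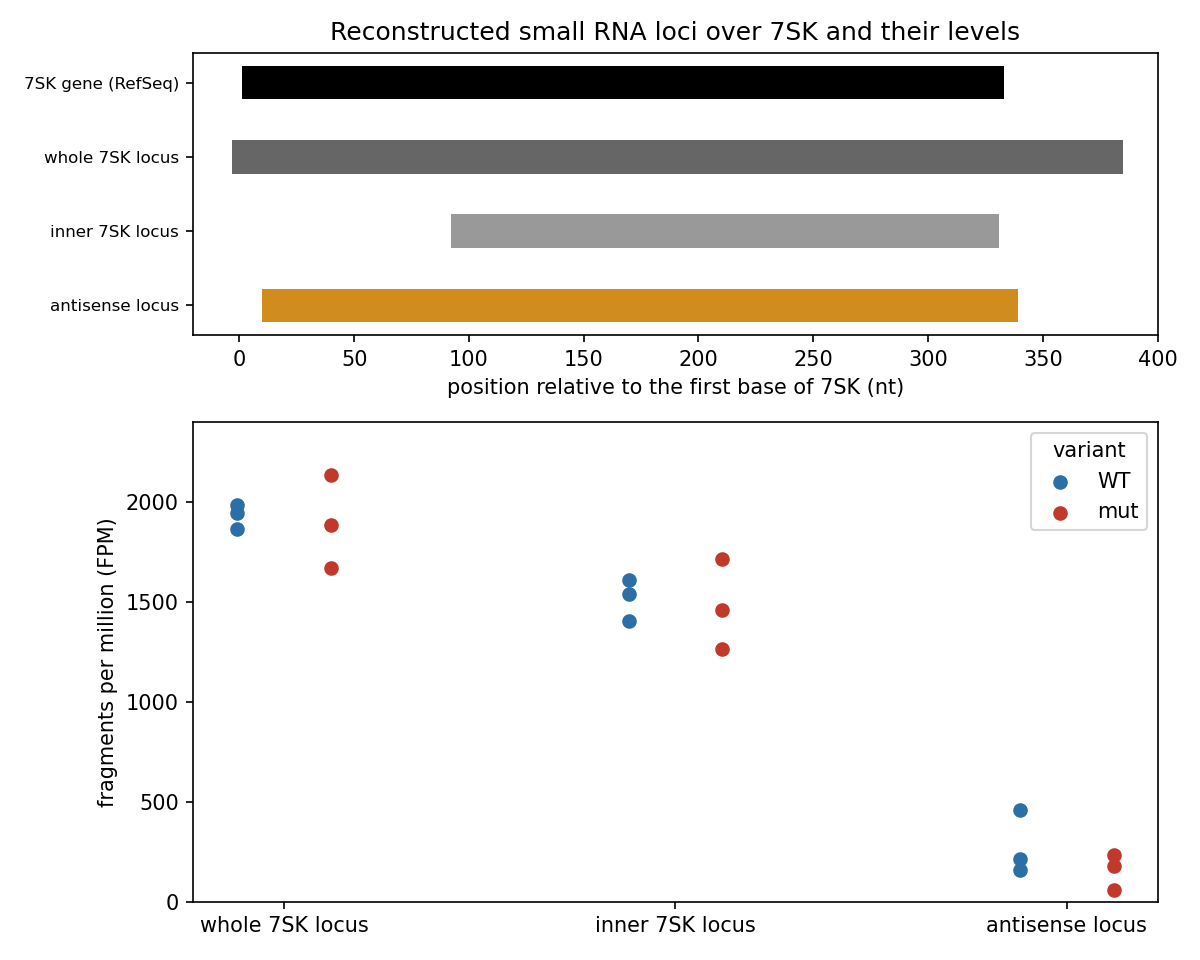
Top, extent of the 3 reconstructed small RNA loci in nt relative to the first base of 7SK, with the 332 nt gene for comparison. Bottom, their level in each small RNA library in FPM (1 point per library, axis from 0), where the mut and WT points overlap for all 3 loci.

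The genes around the 7SK switch were read from lists by role. When P-TEFb leaves, 7SK is taken up by hnRNPs and the helicase DHX9. Of these 5 genes, 1 was higher and 3 were lower in mut, beside 13.0% higher and 14.2% lower of all genes tested, with a list median of -0.17 on the log2 scale. DHX9 was at 751 ± 39.3 CPM in mut, against 618 ± 24.4 CPM in WT (n = 3; 0.28, adjusted p = 0.00034 by edgeR). HNRNPA2B1 was at 229 ± 10.5 and 275 ± 14.6 CPM (-0.26, adjusted p = 0.0017) and HNRNPR at 258 ± 14.2 and 302 ± 8.61 CPM (-0.23, adjusted p = 0.0041). SYNCRIP, the close relative of HNRNPR, was lower (-0.17, adjusted p = 0.035) and was called in 10 of 16 alternatives.

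Factors that release or recruit P-TEFb gave 1 higher and 2 lower of 11, with a median of -0.00; these 27.3% are near the 27.2% called over all genes. PPM1G, a phosphatase that frees P-TEFb from the particle, was at 212 ± 8.29 CPM in mut, against 175 ± 6.003 CPM in WT (n = 3; 0.28, adjusted p = 0.00083 by edgeR). PPM1A, another phosphatase of the same family, was lower (-0.32, adjusted p = 0.0028). BCL11B, a zinc finger factor that binds the 7SK particle, fell from 13.7 ± 0.40 CPM in WT to 8.46 ± 1.77 CPM in mut (-0.69, adjusted p = 0.00042). The elongation complexes that P-TEFb joins gave 1 higher and 3 lower of 13 (30.8%, near the 27.2% of all genes), with a median of -0.14. The scaffolds AFF1 and AFF4 were lower (-0.38, adjusted p = 0.00033, and -0.29, adjusted p = 0.0013). Of the little elongation complex, ICE2 was lower (-0.44, adjusted p = 0.00083) and ICE1 higher (0.18, adjusted p = 0.028, called in 9 of 16 alternatives).

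Among the pausing and elongation factors that P-TEFb acts on or with, 2 were higher and 1 was lower of 13 (23.1%, against 27.2% of all genes), with a median of 0.11. SKIC8, which also serves the RNA-degrading Ski complex, was at 63.2 ± 1.67 CPM in mut, against 48.4 ± 0.93 CPM in WT (n = 3; 0.39, adjusted p = 0.00018 by edgeR). LEO1 of the PAF complex was lower (-0.31, adjusted p = 0.017, called in 11 of 16 alternatives), and the DSIF subunit SUPT4H1 was higher (0.20, adjusted p = 0.033, called in 5 of 16 alternatives). The other kinases and cyclins of transcription gave 1 higher and 2 lower of 11 tested (27.3%, again near the 27.2%), with a median of -0.09, and CDK11A did not pass the filter. Like CDK9, the kinase CDK7 of TFIIH was higher (31.3 ± 0.59 against 25.1 ± 1.63 CPM, n = 3; 0.33, adjusted p = 0.0061). Its cyclin, CCNH, was lower (42.7 ± 1.91 against 55.1 ± 4.01 CPM, n = 3; -0.36, adjusted p = 0.00099). CCNL1, a cyclin of the splicing-linked CDK11 kinases, was lower as well (-0.37, adjusted p = 0.00035).

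The factors known to act at the 7SK gene's own promoter, which bears the type 3 layout shared with U6 genes, gave 0 higher and 2 lower of 10 (20%, against 27.2% of all genes), with a median of -0.06. By DESeq2, and without WT 1, 0 of the 10 were called, and without mut 2 the count was 2 higher and 1 lower. The 2 genes called lower were SNAPC3 (-0.26, adjusted p = 0.016 by edgeR) and SNAPC1 (-0.41, adjusted p = 0.021), both of the SNAPc complex, and they were called in 13 and 12 of the 16 alternatives. The other La-related proteins and La gave 1 higher and 2 lower of 6 (50%, against 27.2% of all genes), with a median of -0.10. SSB, the La protein that binds the U-rich ends of new RNA polymerase III transcripts, was at 92.3 ± 13.3 CPM in mut, against 117 ± 6.72 CPM in WT (n = 3; -0.34, adjusted p = 0.0024). LARP6 was higher (0.31, adjusted p = 0.011) and LARP1B lower (-0.20, adjusted p = 0.040, called in 6 of 16 alternatives).

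Of the 12 other RNAs listed for the same promoter type, 8 passed the filter; 7 of these were called higher in mut and 0 lower (13.0% and 14.2% over all genes), with a median of 0.96 on the log2 scale. RNU6-1 was not called (0.55, adjusted p = 0.16 by edgeR) and its groups overlapped. RNY1 was called (0.79, adjusted p = 0.00079 by edgeR), yet its groups overlapped too. RNY3 was below the filter, and RNY5 was not in the table. The entries matched by symbol to RMRP and RPPH1 were at 0 counts in all libraries. Such a 0 does not show that these RNAs were absent, since ambiguous and multiply aligned reads were counted apart from genes. RNU6-7, a U6 spliceosomal RNA gene, was at 11.3 ± 1.78 CPM in mut, against 4.02 ± 1.04 CPM in WT (n = 3; 1.45, adjusted p = 6.9e-07 by edgeR). RNY4, a Y RNA, was at 11.3 ± 1.79 and 5.08 ± 1.23 CPM (1.12, adjusted p = 1.5e-05). RNU6-2 was higher by 1.58 (adjusted p = 2.3e-05) and RNU6ATAC, of the minor spliceosome, by 0.80 (adjusted p = 0.00015). These genes are shorter than 7SK, and with the span trend fitted on all genes removed the list median was 0.66 with 6 called, RNU6-2 was at 1.28 and RNU6ATAC at 0.51. 7SK over the 8 summed was 9.45 ± 0.27 on the log2 scale in mut and 10.0 ± 0.40 in WT (n = 3), a difference of -0.60 whose groups overlapped (exact permutation p = 0.2). The shorter RNAs are poorly captured in these libraries and several are near-copies of one another, so their counts are uncertain. The immediate early genes, often read as targets of P-TEFb release, gave 2 higher and 1 lower of 12 (25%, against 27.2% of all genes), with a median of 0.04. ATF3 was higher (35.2 ± 3.54 against 22.2 ± 0.998 CPM, n = 3; 0.67, adjusted p = 6.0e-06). JUN was higher by 0.22 (adjusted p = 0.0063), and FOSL1 was lower (2.25 ± 0.19 against 5.40 ± 0.49 CPM, n = 3; -1.26, adjusted p = 5.5e-05). Every called gene named from these lists kept its direction in all 16 alternatives.

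**Figure D5:**
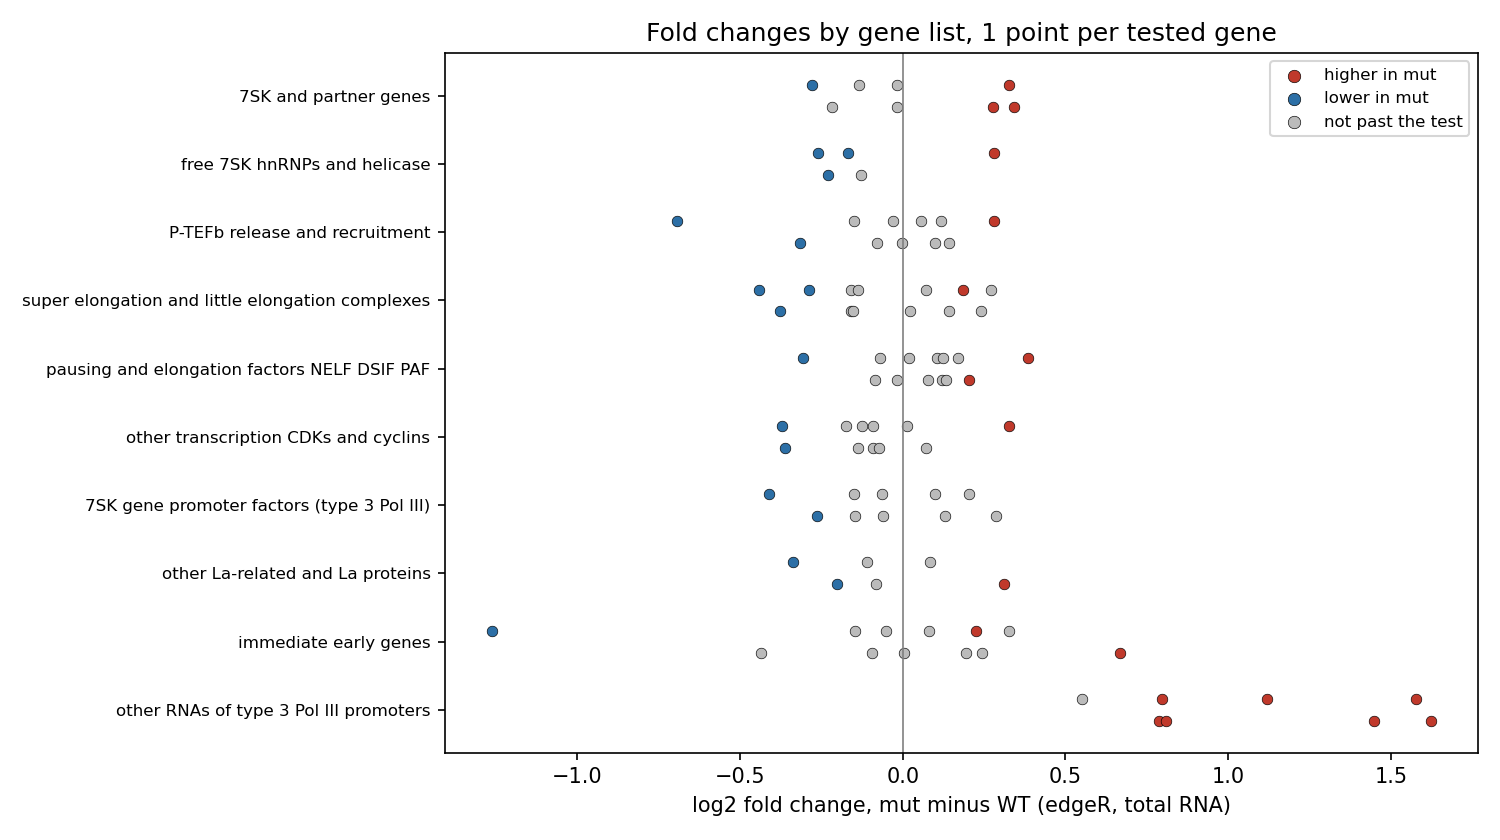
Log2 difference (mut minus WT) in total RNA of the members and of each tested gene in the lists by role, 1 point per gene, red where called higher in mut, blue where called lower and grey where not called. Points fall on both sides of 0 in every list except the other RNAs of type 3 promoters, whose 8 points lie from 0.55 to 1.62.

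Likeness to 7SK was measured as the root mean square difference in log2 CPM over the 6 total RNA libraries, each gene centred on its own mean. Among the 4257 genes with a mean of at least 50 CPM, the nearest were H4C4 (0.018), TTLL12 (0.018), BLTP2 (0.023), STT3A (0.025) and H3C10 (0.026). H4C4 and H3C10 are replication-dependent histone genes, short and without introns. All partners except MEPCE and CCNT1 had means under 50 CPM, the lowest being HEXIM2 at 4.31 CPM, and counting noise adds to the distance at low counts. Of the partners, CDK9 at 0.023 would take rank 3 in this order and MEPCE at 0.067 rank 198. The other partners lay far down the order: HEXIM1 at 0.19 would take rank 2249, CCNT1 rank 2538, HEXIM2 rank 3267, LARP7 rank 3664 and CCNT2, the farthest at 0.33, rank 3863. These are descriptions over libraries that share their 2 groups.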

How the data were processed

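Members and gene lists were chosen with earlier results of these data known. Gene counts of total RNA were deposited by the authors per library; the submitters' processing notes name STAR 2.4.0, HTSeq 0.6.1 and hg38, while neither the strand setting nor the annotation version is given in the sources used here. For small RNA the authors deposited fragment counts, FPM (a depth-scaled signal) and FPKM per feature, per the file headers. Rows naming no gene (57.8% to 63.2% of reads) were left out. Counts were fitted with edgeR 4.0.16 in R 4.3.3 (TMM scaling, filterByExpr, quasi-likelihood F test, Benjamini-Hochberg over all 14409 genes or 589 loci, threshold 0.05). The total RNA fit was also run on simulated counts, with larger folds than those of the members and no span trend. That simulation does not show how well differences as small as those of the members are recovered. 7SK has no annotated small RNA feature, so reconstructed loci were tested instead of annotated ones. Alternatives used DESeq2 1.42.0, limma 3.58.1, other scalings, filters and trends. Replicates differed by more than sampling noise (chi-square per degree of freedom 1.97 to 4.46), and each counted once. Symbols were found for 56321 of 60483 IDs; places, neighbours and promoters are from RefSeq GRCh38.p14. Genes named were DIS3L2, the members, up to 4 called genes of smallest adjusted p per list, and the 5 most like 7SK. The smallest exact p for 3 against 3 is 0.1.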

Additional observations from a re-analysis of the deposited data

How the results depend on the processing

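The total RNA difference of 7SK kept its direction in all 16 alternatives (0.12 to 0.37; 0.32 to 0.36 with 1 library left out) and was called in 15. Scaled to all deposited reads, an alternative chosen after the data were seen, it was 0.26 and not called; the cause was not tested. The number of partner genes called was 0 to 4 with 1 library left out (0 without WT 1). HEXIM1 and CCNT1, both near 0, changed sign: with upper-quartile scaling they were 0.010 and 0.011, and with 1 library left out HEXIM1 ranged from -0.063 to 0.044 and CCNT1 from -0.078 to 0.041. The small RNA value of 7SK was -0.034 by limma on log2(FPKM + 1) and on log2(FPKM + 0.1), and -0.028 with scaling to library totals alone, chosen after the data were seen, against 0.02 to 0.11 with 1 library left out. Genes called lower were 1357 by DESeq2 and 1274 without WT 3, against 2049; those called higher were 939 with scaling to all deposited reads, against 1867. The ratio of 7SK to its partners was 0.29 to 0.37 with 1 library left out. With the span trend removed, added after the data were seen, it was 0.22 and 0.13. The gap between the assays was 0.29 (exact permutation p = 0.085), or 0.37 (exact permutation p = 0.04) with small RNA in FPM. Those p-values do not test whether the assays differ. Same-numbered libraries did not deviate together (correlations -0.29, -0.36 and 0.05 over 9690 genes), so the numbers do not pair them; a replicate block gave 0.34 for 7SK, 3 partners called, 28 list genes against 32, 0.33 for the ratio, 0.05 in small RNA, and 3520 genes called against 3916, and no library correlated best with its own number. HEXIM2, at 32 to 53 counts, and the small RNA loci are the least precise values.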

Other observations

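ZGRF1, a helicase gene within 1 kb of LARP7, was named after its values were seen. It was at 25.3, 33.7 and 30.3 CPM in mut, against 44.2, 37.3 and 44.5 CPM in WT, and all mut libraries were below all WT libraries. Its log2 difference was -0.49 (SE 0.10, adjusted p = 0.00046 by edgeR), in the same direction as the -0.22 of LARP7, and in both genes WT 2 was the WT library nearest to mut. The other neighbours within 1 kb that could be tested were not called: GSTA4 beside 7SK was at 27.4 ± 1.599 CPM in mut, against 30.7 ± 1.47 CPM in WT (n = 3; -0.16, adjusted p = 0.19), and ZCWPW1 beside MEPCE was at 6.14 ± 0.95 and 5.80 ± 1.27 CPM (0.07, adjusted p = 0.80). CCNT2-AS1 beside CCNT2 was below the count filter, and MIR3960 and MIR2861 beside CDK9 were not in the count table.

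WT 2, the deepest total RNA library, was the WT library nearest to the mut libraries for 7SK, LARP7, MEPCE, CDK9 and CCNT2, in whichever direction the gene differed. Leaving out the nearest WT library widens such a difference by construction, so the larger values without WT 2 are no further result. Among them were 0.36 for 7SK, -0.30 for LARP7 and -0.36 for CCNT2. How many of all tested genes have WT 2 nearest to mut was not counted.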
